A study of Mus musculus with 109 samples.

Results

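The MHC class II genes described here are H2-Aa, H2-Ab1, H2-Eb1, Cd74, H2-DMa and H2-DMb1, which were taken by name from the 4 deposited expression tables of microglia. The set named 7 genes, and 6 had a row in every table, out of 12498, 12798, 13390 and 11549 genes in the tables of controls, Il10ra mutants, double mutants and untreated mice. The seventh, Ciita, is not analysed here. All 6 passed the filter on low values in all 4 tables.

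Libraries were 3′ tag libraries (MARS-seq) of microglia, the resident macrophages of the brain, and 88 of 89 could be placed in a group from their labels. Il10ra mutants (CX3CR1-CreER:IL10Rafl/fl) were untreated (n = 9) or taken 6 h (n = 7), 24 h (n = 5) or 48 h (n = 5) after LPS, a bacterial endotoxin, at 2.5 mg/kg intraperitoneally. Their controls carried the floxed alleles without Cre (IL10Rafl/fl) and were untreated (n = 6) or taken at 6 h (n = 6), 24 h (n = 4), 48 h (n = 6) or 7 days (n = 4) after the same dose. Double mutants (CX3CR1-CreER:IL10Rafl/fl:TNFfl/fl) were untreated (n = 5) or taken at 6 h (n = 6) or 48 h (n = 4), and their doubly floxed controls without Cre (IL10Rafl/fl:TNFfl/fl) were untreated (n = 6) or taken at 6 h (n = 5) or 48 h (n = 6). Untreated WT C57BL/6 mice gave 4 libraries. The column of untreated double mutant library 4 has the word mistake in its name in the deposited table; its labels give the double mutant genotype without conflict, and it was kept. Cx3cr1 drives Cre in other macrophages too, so the mutations are not restricted to microglia. Ages and sexes were not given in the labels.

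The libraries came from 7 experiments named in the labels, and the tables shared libraries: all 22 control libraries up to 48 h held identical reads in the first 2 tables, so comparisons across tables are not independent. Reads per library ran from 540642 to 2489084. Il10ra averaged 63.1 ± 33.2 normalised reads in untreated Il10ra mutants and 541 ± 103 in untreated controls (SD, n = 9 and 6). Tnf at 6 h averaged 10.9 in double mutants and 399 in doubly floxed controls. Microglial markers (such as P2ry12 and Tmem119) were present in every group. Values are the authors' normalised reads per gene, and a 3′ tag library counts molecules at their end, so levels are compared between libraries and not between genes. These were bulk samples, in which fewer cells of a type and less RNA per cell cannot be told apart.

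MHC class II molecules are heterodimers that carry peptides from the endosomal pathway to the surface, where CD4+ T cells read them. H2-Aa and H2-Ab1 encode the α and β chains of I-A, and H2-Eb1 encodes the β chain of I-E. H2-Ea, the gene of the I-E α chain, is annotated as a transcribed pseudogene in the mouse genome used here. Changes of I-E chains below are thus changes of the H2-Eb1 transcript, and protein was not measured. Cd74, the invariant chain, fills the groove of newly made molecules and takes them to endosomes, and H2-DMa and H2-DMb1 encode the DM heterodimer that exchanges the remnant of the invariant chain for peptide. Ciita encodes the coactivator that assembles on the X and Y boxes of these promoters. Resting microglia carry little class II, interferon γ raises it, and some macrophages at the borders of the brain carry much more.

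On mm10 (GRCm38), 5 of the 6 genes lie within a short stretch of chromosome 17: H2-DMa at chr17:34119693-34139101, H2-DMb1 at chr17:34153191-34160229, H2-Ab1 at chr17:34263227-34269418, H2-Aa at chr17:34282744-34287823 and H2-Eb1 at chr17:34305867-34316674. H2-DMb1 has a close copy, H2-DMb2, at chr17:34143229-34151553, so reads of these genes could be split between them and their values are uncertain to that extent.

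Promoters are shown because a DM chain gene, H2-DMb1, shared a promoter layout with H2-Aa and H2-Eb1, although it was not among the genes called at 7 days. The promoters of H2-Ab1 and Cd74 are not analysed here. RefSeq promoter sequence (GRCm38.p6, 250 bases before the start to 50 after it) was searched on the strand of the gene for GNAAC, as in the X box, followed by GATTGG, the Y box, with 28 to 33 bases between their first letters. The letters and the spacing were chosen after these promoters had been read. The pair stood in the promoters of H2-Aa (chr17:34287774-34288073, minus strand), H2-Eb1 (chr17:34305617-34305916, plus strand) and H2-DMb1 (chr17:34152941-34153240, plus strand), with both motifs in capitals here:
H2-Aa: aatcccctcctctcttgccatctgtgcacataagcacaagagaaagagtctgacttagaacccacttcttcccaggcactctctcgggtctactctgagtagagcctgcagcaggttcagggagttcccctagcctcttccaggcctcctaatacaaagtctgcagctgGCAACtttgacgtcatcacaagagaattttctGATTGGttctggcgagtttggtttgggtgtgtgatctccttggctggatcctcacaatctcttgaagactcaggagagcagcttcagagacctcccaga
H2-Eb1: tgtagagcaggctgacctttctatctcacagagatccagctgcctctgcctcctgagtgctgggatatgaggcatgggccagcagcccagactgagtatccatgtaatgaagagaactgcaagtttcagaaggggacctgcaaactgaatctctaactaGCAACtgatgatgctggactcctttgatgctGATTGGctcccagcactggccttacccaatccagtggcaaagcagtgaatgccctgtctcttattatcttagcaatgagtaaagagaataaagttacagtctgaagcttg
H2-DMb1: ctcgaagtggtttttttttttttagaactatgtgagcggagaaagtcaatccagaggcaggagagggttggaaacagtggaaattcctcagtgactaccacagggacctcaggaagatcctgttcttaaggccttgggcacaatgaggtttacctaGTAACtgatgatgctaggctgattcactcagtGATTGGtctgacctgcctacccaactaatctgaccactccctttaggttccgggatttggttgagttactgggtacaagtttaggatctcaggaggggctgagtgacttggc
The first motif began 81 bases before the start in H2-Aa, 91 in H2-Eb1 and 94 in H2-DMb1, and the motifs were 32, 31 and 32 bases apart. The pair was also found for H2-Oa, H2-Ob and H2-Eb2, and it was not found in these windows of H2-DMa and H2-DMb2. The pair stood in 0.338% of 32851 mouse promoters, whereas GNAAC alone stood in 84.8% and GATTGG alone in 16.1%. A match is a description of the letters only.

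In control microglia the members took separate courses after LPS. Cd74 was higher at every time, and the I-A and I-E chains were lower at 48 h and far higher at 7 days. The DM chain gene H2-DMb1 was lower at 6 h and 24 h. Monocyte markers summed to 64.3 to 163 normalised reads at 6 h and 87.8 to 229 at 48 h, against 21.5 to 43.7 in untreated controls, and border macrophage markers to 6.08 to 18.8 at 6 h and 63.9 to 119.9 at 48 h, against 13.7 to 63.5. B cell markers went the other way at 6 h, with sums of 93.8 to 138.2, against 635 to 865 in untreated controls. At 48 h they summed to 411.2 to 647.8, which overlapped the untreated libraries. Dendritic cell sums of controls at 6 h and 48 h are not given against untreated ones. The part of any of these markers in these changes was not tested. Where groups are said not to overlap, here and below, the share of all genes that did so is not given. Calls are at an adjusted p under 0.05 (limma on log2 of normalised reads plus 1, Benjamini-Hochberg over all genes tested, with experiment as a term), and their p-values rest on how far samples within a group scatter, which may be technical, since the labels do not say in every case that samples were separate animals.

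Cd74 lies apart from the others, at chr18:60803849-60812652. It had 395, 485 and 563 normalised reads (lowest, median, highest) at 6 h, against 67.6, 109.1 and 121 in untreated controls. The groups did not overlap, and the level was 5.51-fold higher (log2 2.46 ± 0.25 SE, adjusted p = 6.28e-09). At 24 h the 4 libraries had 389, 462, 164 and 290 normalised reads of Cd74, all above the untreated ones (log2 1.80 ± 0.25, adjusted p = 3.06e-06). At 48 h they had 180, 190 and 230, still above the untreated libraries (log2 0.73 ± 0.23, adjusted p = 0.0208). That last call was lost when any of 3 untreated libraries was left out (adjusted p = 0.0587 to 0.0786), although all 48 h and 3 of the untreated libraries came from the same experiment, AS_3rd_LPS, within which it held (log2 0.73, adjusted p = 0.00018).

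H2-Aa had 52.5, 74.9 and 137 normalised reads at 6 h (lowest, median, highest), against 61.0, 101.5 and 145.9 in untreated controls, and the groups overlapped. Its fitted difference at 6 h was 0.02 ± 0.39 (log2; 95% interval -0.74 to 0.79; adjusted p = 0.969). H2-Ab1 (log2 0.33 ± 0.34, adjusted p = 0.477) and H2-Eb1 (-0.06 ± 0.44, adjusted p = 0.931) did not pass either. Thus 2 of 6 members passed at 6 h, Cd74 upward and H2-DMb1 downward, against 41.5% of all genes tested, and the median log2 change was -0.02 for the members and -0.05 for all genes.

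At 48 h H2-Aa had 11.7, 32.004 and 49.3 normalised reads (lowest, median, highest), below every untreated library. It fell by 2.11 ± 0.35 on the log2 scale, a 4.32-fold lower level (adjusted p = 6.14e-05). H2-Eb1, with 6.30, 19.6 and 29.9 normalised reads at 48 h and 33.4, 64.5 and 101 in untreated controls, fell by 2.13 ± 0.40 (adjusted p = 0.000238). H2-Ab1, with 32.4, 41.99 and 57.9 at 48 h and 95.9, 134.1 and 177 in untreated controls, fell by 1.81 ± 0.31 (adjusted p = 9.91e-05). None of the 3 genes overlapped between the groups, and the share of all genes without overlap is not given. By limma 4 of 6 members passed at 48 h, 1 upward and 3 downward, against 19% of all genes. At 24 h only Cd74 and H2-DMb1 passed, where 29.2% of all genes did.

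H2-DMb1 had 75.5, 96.3 and 118 normalised reads at 6 h (lowest, median, highest) and 153, 179 and 204 in untreated controls. The groups did not overlap, and the level was 2.01-fold lower (log2 -1.01 ± 0.24, adjusted p = 0.00144). At 24 h the libraries of experiment AS_2nd_exp had 67.9, 72.6 and 175 and the single one of Anat_LPSchallenged had 169, so the group was split. The call at 24 h (log2 -0.76 ± 0.24, adjusted p = 0.0199) was lost without either of the first 2 of those libraries (log2 -0.50 and -0.53, adjusted p = 0.133 and 0.123), without untreated library 2 or 3 (adjusted p = 0.0772 and 0.0625), and within AS_2nd_exp (log2 -0.94, adjusted p = 0.103). At 48 h its libraries lay at 220, 249 and 267, all above the untreated ones, with a difference that did not pass (log2 0.53 ± 0.22, adjusted p = 0.0967) but passed within AS_3rd_LPS alone (log2 0.53, adjusted p = 0.00249). H2-DMa did not pass at 6, 24 or 48 h (log2 -0.26, -0.35 and 0.37), although it did at 48 h with only the groups compared (adjusted p = 0.0452).

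**Figure D1:**
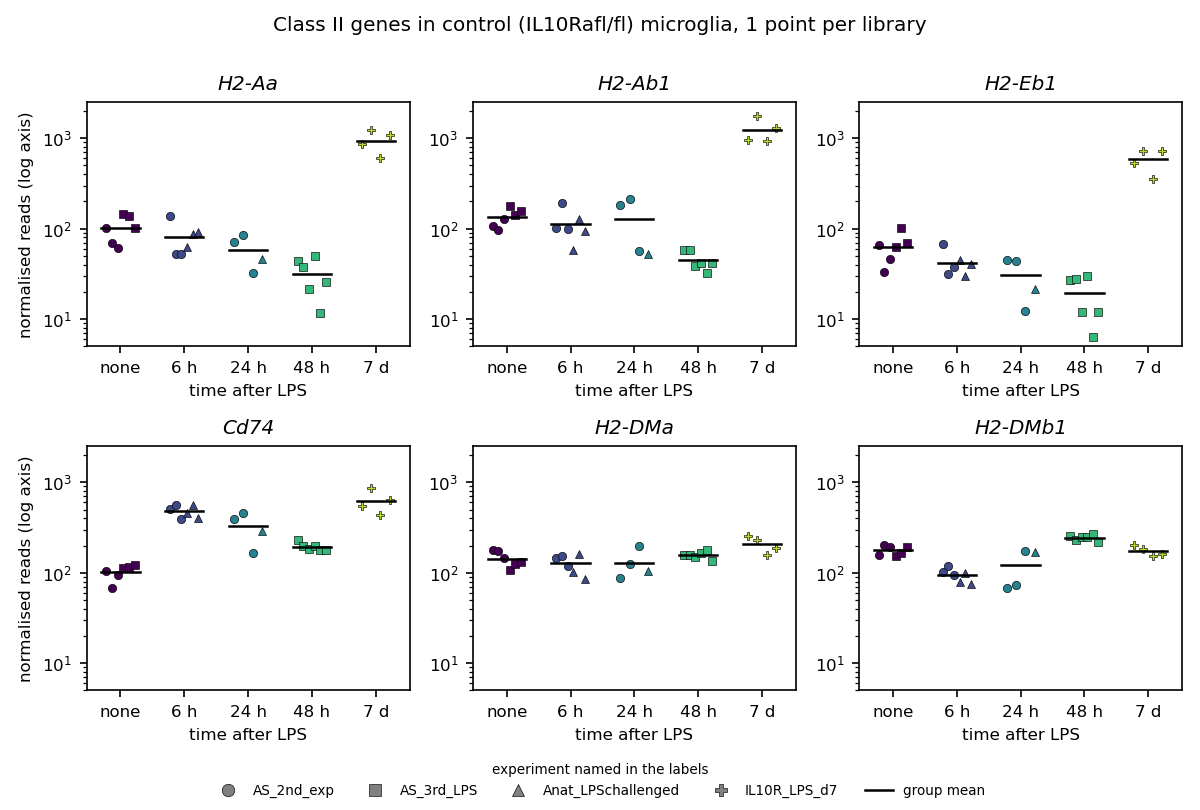
Normalised reads (log axis) of the 6 genes in control microglia, untreated and 6 h, 24 h, 48 h and 7 days after LPS. Each point is a library, its shape gives the experiment named in the labels, and lines are group means. H2-Aa, H2-Ab1 and H2-Eb1 lie lowest at 48 h and highest at 7 days, and Cd74 is above the untreated libraries at 6 h and 48 h.

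At 7 days after LPS the I-A and I-E chains and Cd74 were far above the untreated level, and the DM chains were not called, although H2-DMa was with only the groups compared (log2 0.53, adjusted p = 0.0329). H2-Aa had 863, 1219, 605 and 1083 normalised reads at 7 days, against 61.0, 101.5 and 145.9 (lowest, median, highest) in untreated controls, a 10.1-fold higher level (log2 3.34 ± 0.35, adjusted p = 3.15e-07). H2-Ab1 had 944, 1779, 928 and 1287 at 7 days, against 95.9, 134.1 and 177 (11.4-fold, log2 3.52 ± 0.31, adjusted p = 1.51e-08). H2-Eb1 had 535, 726, 357 and 717, against 33.4, 64.5 and 101 (10.7-fold, log2 3.42 ± 0.39, adjusted p = 1.08e-06). The folds at 7 days come from the fit with its experiment term and are not ratios of the values listed. Library 3 was the lowest and library 2 the highest in each of the 3 genes, and no 7 day library overlapped an untreated one.

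Cd74 had 552, 860, 434 and 645 normalised reads at 7 days, which was 6.31-fold higher than in untreated controls (log2 2.66 ± 0.22, adjusted p = 7.62e-09). The DM chains did not pass: H2-DMa had 258, 232, 157 and 187 (log2 0.56 ± 0.20, adjusted p = 0.151), and H2-DMb1 had 205, 185, 153 and 162, against 153 to 204 in untreated controls (log2 -0.06 ± 0.22, 95% interval -0.48 to 0.37, adjusted p = 0.952). Thus 4 of 6 members were called, all upward, against 3.22% of all genes. The median log2 change was 2.998 for the members and 0.00 for all genes.

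The 7 day libraries were an experiment of their own, with no untreated libraries in it, so that experiment and time cannot be told apart. They also carried transcripts of other cells. The border macrophage markers (Mrc1, Cd163, Lyve1, Pf4, F13a1, Ms4a7, Cbr2) summed to 228 to 502 normalised reads in the 7 day libraries and 13.7 to 63.5 in the untreated ones, and 6 of 6 tested rose, Pf4 by 4.38 and F13a1 by 3.32 (log2; adjusted p = 1.4e-07 and 4.68e-07). Monocyte markers summed to 245 to 732 at 7 days and 21.5 to 43.7 in untreated controls (6 of 6 tested rose), neutrophil markers to 2588 to 19329 and 6.01 to 813 (6 of 7 rose), and erythroid markers to 1598 to 3599 and 0 to 257 (5 of 5 rose). Dendritic cell markers summed to 73.5 to 83.9 and 54.2 to 67.2, with none of 3 tested called, and the B cell markers Cd79b, Ighm, Igkc and Cd22 to 687 to 953 and 635 to 865, with none of 4 called. Xcr1, Clec9a, Cd79a and Ms4a1 are not analysed here. Microglial markers summed to 23303 to 26279 at 7 days and 24396 to 25319 in untreated controls, with none of 8 called. The part of these cells in the class II result was not tested.

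Lists of genes that act with class II are given by their counts. Of all genes tested 41.5% were called at 6 h and 3.22% at 7 days. Those called higher at 6 h were 20.4% of all genes tested. At the 7 day share few calls would fall in lists this short. At 7 days none of 18 regulators of CIITA and its promoters, 10 genes of antigen processing, 12 interferon γ inducible genes, 11 genes of the class I pathway or 6 costimulatory genes was called, with medians of -0.03, 0.04, 0.34, 0.26 and 0.29 (log2). At 6 h 12 of 12 interferon γ inducible genes rose (median log2 2.36), among them Nlrc5, the coactivator of class I genes (log2 3.26), the GTPase Igtp (2.12) and the feedback inhibitor Socs1 (3.41). In the class I pathway 5 of 11 rose at 6 h, led by the peptide transporter Tap1 (2.24), the heavy chain H2-K1 (1.63) and Tap2 (1.30). Costimulation gave 3 of 6, Cd40 (5.80), the adhesion molecule Icam1 (1.57) and the checkpoint ligand Cd274 (2.79).

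Among the 18 regulators 4 rose and 4 fell at 6 h, a share near the 41.5% of all genes called. They included Irf1 (log2 1.94), which binds an interferon-driven Ciita promoter, the kinase Jak1 (0.77) and Irf8 (-0.77). At 48 h Prdm1 (-1.56), known as a repressor of Ciita in B cells, and Irf8 (-0.49) fell. In antigen processing 5 of 10 rose and 1 fell at 6 h, and 4 rose and 2 fell at 48 h, where 41.5% and 19% of all genes were called. They were led at 48 h by the lysosomal thiol reductase Ifi30 (log2 2.71), the protease Ctsl (1.55) and Ctsz (0.70). Of the other class II genes, H2-Oa and H2-Ob, whose DO product restrains DM, fell at 48 h (log2 -1.28 and -0.77), and H2-Ob fell at 6 h (-0.88) together with H2-DMb2 (-1.62). Microglial markers also fell, 7 of 8 at 6 h and 4 of 8 at 48 h (median log2 -1.36 and -0.72).

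The invariant chain and the class II α chain were set against each other within each library, as log2 Cd74 minus log2 H2-Aa. The scaling of a library nearly cancels in this difference. In untreated controls it averaged 0.04 ± 0.36 (SD, n = 6), at 6 h 2.63 ± 0.55 (n = 6), at 24 h 2.45 ± 0.14 (n = 4), at 48 h 2.72 ± 0.66 (n = 6) and at 7 days -0.59 ± 0.13 (n = 4). All 6 h, 24 h and 48 h libraries lay above all untreated ones, and all 7 day libraries below them. The exact two-sided permutation test gave adjusted p = 0.00758, 0.02, 0.00758 and 0.02 for 6 h, 24 h, 48 h and 7 days against untreated (21 comparisons in the family; no split of 6 against 4 libraries can give an unadjusted p below 0.00952).

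The difference was also larger after LPS in Il10ra mutants, double mutants and doubly floxed controls. At 6 h it averaged 2.83 ± 0.51 in Il10ra mutants, 3.58 ± 0.70 in double mutants and 3.51 ± 0.74 in doubly floxed controls, and the untreated libraries of these genotypes averaged -0.10 ± 0.18, 0.73 ± 0.58 and 0.67 ± 0.70 (exact permutation, adjusted p = 0.00367, 0.0114 and 0.0114). Between Il10ra mutants and controls no difference passed, at -0.14 untreated, 0.20 at 6 h, 0.02 at 24 h and 0.12 at 48 h (adjusted p = 0.474 to 0.952). At 48 h double mutants had 2.58 to 3.06 and doubly floxed controls 2.94 to 4.18, a difference of -0.73 (exact permutation, adjusted p = 0.0333) that was lost when any of 8 libraries was left out. Within the experiment that held most libraries of each comparison the shifts after LPS kept their direction, from 2.17 to 3.15, but with so few libraries the smallest p possible was 0.0238 to 0.2 and no adjusted p was under 0.237.

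**Figure D2:**
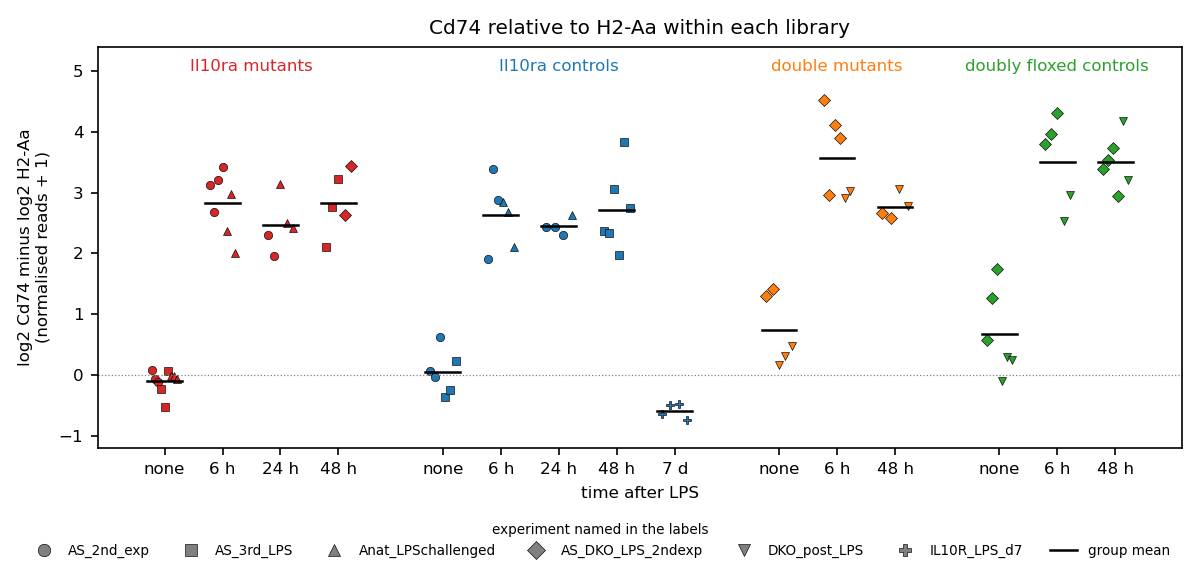
Difference of log2 Cd74 and log2 H2-Aa (normalised reads plus 1) in each library, for Il10ra mutants, controls, double mutants and doubly floxed controls by time after LPS. Points are libraries, shapes are experiments and lines are means. All libraries at 6 h to 48 h lie at 1.90 or higher, whereas the 7 day libraries lie between -0.75 and -0.48.

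Il10ra mutants differed from controls in the DM chains at 48 h. H2-DMa had 116.1, 49.6, 61.0, 61.2 and 61.4 normalised reads in mutants at 48 h, against 123, 145 and 166 (lowest, median, highest) in controls at 48 h. H2-DMb1 had 147, 57.1, 74.6, 61.2 and 61.4 in the mutants, against 202, 231 and 247 in the controls. Neither gene overlapped between the genotypes, and mutant library 1 was the highest of its group in both.

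The levels were 2.03-fold lower for H2-DMa (log2 -1.02 ± 0.20, adjusted p = 8.18e-05) and 2.62-fold lower for H2-DMb1 (log2 -1.39 ± 0.24, adjusted p = 2.12e-05). The table held no other group of experiment AS_DKO_LPS_2ndexp, so mutant libraries 4 and 5 did not enter these fold changes, which rest on the 3 libraries of AS_3rd_LPS. Without library 1 the differences were -1.37 and -1.77 (adjusted p = 1.35e-06 and 1.14e-06). That library also had the highest sum of microglial markers in its group.

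The difference between the genotypes in their 48 h response was itself tested, and it rests on the same mutant 48 h libraries of AS_3rd_LPS. It was -1.24 ± 0.25 for H2-DMa (log2, adjusted p = 0.00036) and -1.42 ± 0.31 for H2-DMb1 (adjusted p = 0.000922), so 2 of 6 members differed, against 16.4% of all genes. Within AS_3rd_LPS it was -1.28 and -1.36 (adjusted p = 0.00355 and 0.0045). For Cd74, H2-Aa and H2-Eb1 the interval of this difference lay on both sides of 0, from -0.79 to 0.89, -1.06 to 0.86 and -1.24 to 1.02. H2-Ab1 was not called either (0.42 ± 0.49, adjusted p = 0.62), although it was with only the groups compared (0.84, adjusted p = 0.0387). At 6 h and 24 h no member was called in this test (0% and 0.0433% of all genes called). In mutants against controls at 48 h 7 of 8 microglial markers were lower (median log2 -1.38), where 15.2% of all genes were called lower. The sums of these markers ran from 4570 to 8591 normalised reads in mutants and 13058 to 16968 in controls. Border macrophage markers summed to 9.76 to 27.5 in mutants and 58.7 to 107.5 in controls, and B cell markers to 201 to 309 and 380 to 595. Sums of the other markers overlapped: dendritic cell 35.8 to 50.8 and 40.8 to 110, monocyte 25.6 to 168 and 80.7 to 213, and neutrophil 27.8 to 1303 and 26.6 to 236. Their part in the DM result was not tested.

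H2-Ab1 moved the other way at 48 h, with 124.3, 68.3, 97.9, 82.5 and 70.5 normalised reads in mutants, against 30.0, 38.8 and 53.4 (lowest, median, highest) in controls. The groups did not overlap, and the level was 2.28-fold higher in mutants (log2 1.19 ± 0.39, adjusted p = 0.0176), a call lost without mutant library 1 (log2 0.99, adjusted p = 0.0994) or 3 (log2 1.16, adjusted p = 0.0624). Cd74 had 308, 248, 355, 253 and 314 in mutants and 165, 175 and 213 in controls, again without overlap, but did not pass (log2 0.74 ± 0.34, adjusted p = 0.0961), although it did within AS_3rd_LPS (log2 0.74, adjusted p = 0.00157). H2-Aa (log2 0.76, adjusted p = 0.144) and H2-Eb1 (0.75, adjusted p = 0.221) did not pass. As for the DM chains, these fold changes rest on the 3 mutant libraries of AS_3rd_LPS, although all mutant values are listed. Thus 3 of 6 members were called at 48 h, against 27.9% of all genes. At 6 h and 24 h none of the 6 was called, against 3.31% and 3.5% of all genes, with H2-DMb1 at 24 h at -0.62 ± 0.24 (log2, adjusted p = 0.119) and 1 of 6 members at an unadjusted p under 0.05.

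**Figure D3:**
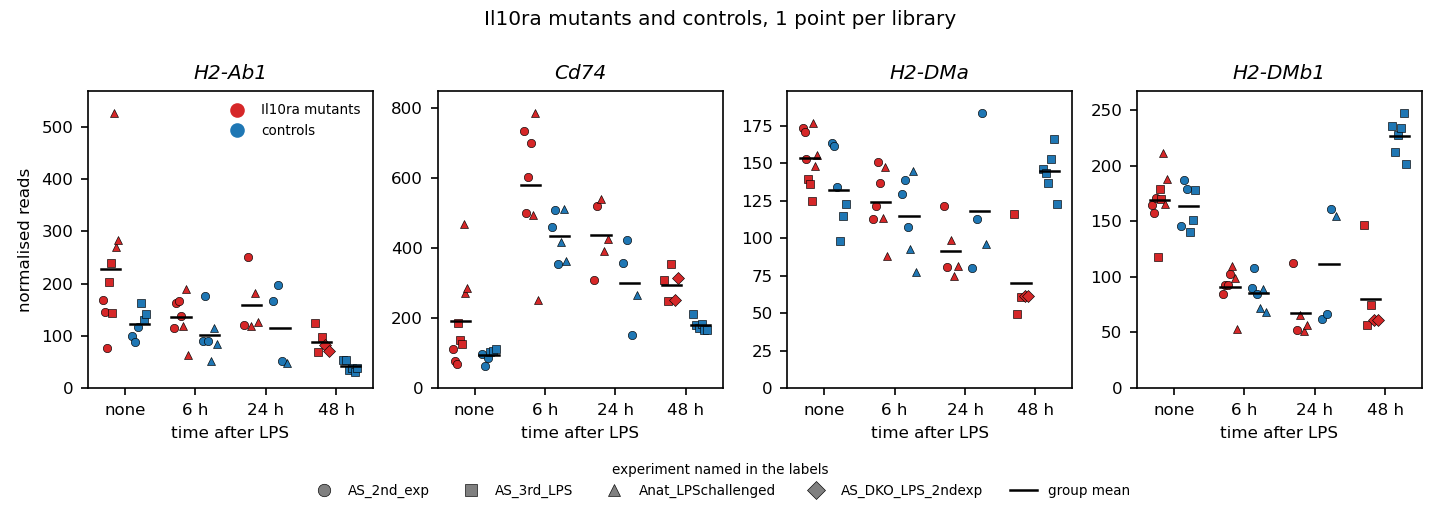
Normalised reads (linear axes from 0) of H2-Ab1, Cd74, H2-DMa and H2-DMb1 in Il10ra mutants and controls, untreated and 6 h, 24 h and 48 h after LPS. Points are libraries, shapes are experiments and lines are group means. At 48 h the mutant libraries lie below all controls for H2-DMa and H2-DMb1 and above all controls for H2-Ab1 and Cd74.

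Other genes of antigen processing were also lower in mutants at 48 h: 5 of 10 fell and none rose (median log2 -0.43), led by the asparaginyl protease Lgmn (-1.21), Ifi30 (-1.45) and the protease Ctsd (-1.07). Among the other class II genes H2-DMb2 fell (log2 -1.85, adjusted p = 0.0151). Of the regulators 4 of 18 fell and 1 rose, a share near the 27.9% of all genes called, with the interferon regulatory factor Irf4 at -1.77, the macrophage factor Spi1 at 0.93 and Nfya, a subunit of the Y box factor NF-Y, at -0.97. Interferon γ inducible genes gave 3 of 13 higher and none lower (median log2 0.72): the GTPases Gbp2 (2.16) and Irgm1 (0.78) and the chemokine Cxcl10 (2.26). The median of all genes in this comparison was 0.01.

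No member passed between untreated Il10ra mutants and untreated controls, and the levels differed widely between experiments. H2-Aa had 75.2, 198 and 473 normalised reads (lowest, median, highest) in untreated mutants and 56.2, 93.5 and 134.2 in untreated controls. By experiment, mutants averaged 87.0 in AS_2nd_exp, 179 in AS_3rd_LPS and 349 in Anat_LPSchallenged, and controls averaged 70.8 in AS_2nd_exp and 118 in AS_3rd_LPS, with no untreated controls in the other. The mutant mean was the higher one in both experiments that held both genotypes, by 0.31 and 0.57 (log2), with ranges that overlapped.

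The fitted differences were 0.85 ± 0.30 for H2-Aa, 0.77 ± 0.30 for H2-Ab1, 0.86 ± 0.35 for H2-Eb1 and 0.69 ± 0.26 for Cd74 (log2), all with an adjusted p of 1. In the limma fit 4 of 6 members had an unadjusted p under 0.05 and none passed after adjustment, where 0.00865% of all genes did. That fit shares its experiment terms over all groups. The untreated mutants of Anat_LPSchallenged, which had no untreated controls, thus entered these differences by way of its 6 h and 24 h groups. For H2-Aa the fitted difference lay above those of the means within both experiments that held both genotypes. Cd74 followed H2-Aa, with means of 85.8, 150 and 342 normalised reads in the mutants of these 3 experiments. H2-DMa averaged 166, 133 and 160 and H2-DMb1 164, 155.7 and 188 in the same mutants.

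The response of the mutants to LPS was not alike in its experiments, a difference that was not itself tested. In Anat_LPSchallenged H2-Aa fell by 2.01 on the log2 scale at 6 h (adjusted p = 0.000126), with a mean of 85.3 normalised reads at 6 h and 349 untreated, while Cd74 moved by 0.48 (adjusted p = 0.326). In AS_2nd_exp Cd74 rose by 2.89 at 6 h (adjusted p = 3.63e-08), and H2-Aa, at 72.0 normalised reads at 6 h and 87.0 untreated, changed by -0.26 (adjusted p = 0.243). Over both experiments Cd74 rose by 1.80 ± 0.26 (adjusted p = 6.55e-08) and H2-Aa fell by 1.05 ± 0.29 (adjusted p = 0.00227). At 24 h the split was the same, with H2-Aa at -2.28 in Anat_LPSchallenged (adjusted p = 1.72e-06) and 0.07 in AS_2nd_exp (adjusted p = 0.899). H2-Eb1 likewise fell by 2.15 at 6 h and 2.84 at 24 h in Anat_LPSchallenged (adjusted p = 0.000426 and 9.21e-07) and was not called in AS_2nd_exp (log2 -0.12 and -0.51, adjusted p = 0.676 and 0.308).

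Counted over both experiments, 5 of 6 members passed in mutants at 6 h (1 upward, 4 downward) and 5 of 6 at 24 h (1 upward, 4 downward), against 55.1% and 53.5% of all genes. At 48 h all 6 passed by limma, 1 upward and 5 downward, against 35.6%. The 48 h fold changes rest on the 3 mutant 48 h libraries of AS_3rd_LPS. The other mutant 48 h libraries were alone in their experiment and did not enter. H2-Aa, with 70.3, 35.8, 36.9, 39.9 and 28.05 normalised reads at 48 h, fell by 2.06 ± 0.42 (adjusted p = 9.29e-05), and H2-Eb1 by 2.05 ± 0.49 (adjusted p = 0.000764). Cd74 rose by 0.91 ± 0.36 (adjusted p = 0.0463), a call lost when any of 9 single libraries was left out (log2 0.78 to 1.04, adjusted p = 0.0507 to 0.157) and with edgeR (adjusted p = 0.053), DESeq2 (0.0529) or quantile normalization (0.0572). H2-Ab1 (-1.1999 ± 0.42, adjusted p = 0.0204) and H2-DMb1 (-0.86 ± 0.26, adjusted p = 0.00795) lost theirs without mutant 48 h library 2 (adjusted p = 0.124 and 0.138).

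**Figure D4:**
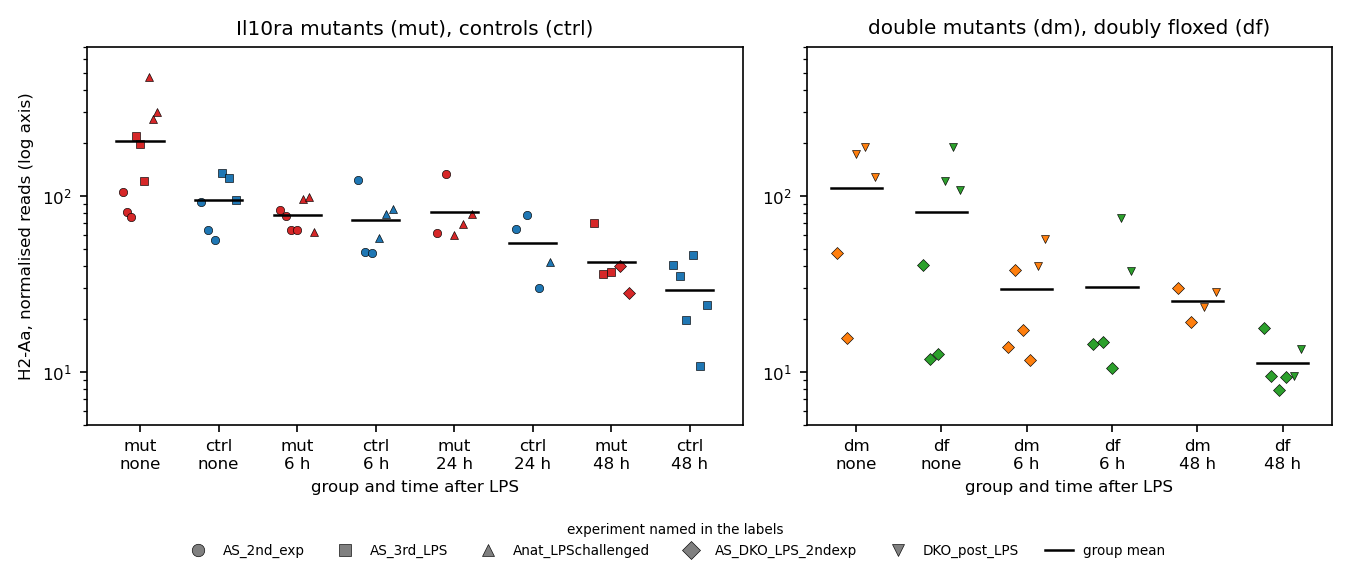
Normalised reads of H2-Aa (log axis) in Il10ra mutants beside controls and in double mutants beside doubly floxed controls, at each time after LPS. Points are libraries, shapes are experiments and lines are means. Untreated libraries separate by experiment in both panels, with untreated mutant means of 87.0, 179 and 349. The 48 h libraries lie closer together than the untreated ones in Il10ra mutants, double mutants and doubly floxed controls. In controls they do not on this axis, at 10.8 to 45.9 normalised reads at 48 h and 56.2 to 134.2 untreated.

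Between double mutants and doubly floxed controls no member passed. None of 6 members was called untreated, at 6 h or at 48 h by limma, where 0.0254%, 0.0678% and 0.0169% of all genes were, and 1, 2 and 0 members had an unadjusted p under 0.05. H2-Aa at 48 h had 30.0, 19.2, 23.4 and 28.2 normalised reads in double mutants and 7.82, 9.41 and 17.8 (lowest, median, highest) in doubly floxed controls. These libraries did not overlap, yet the difference did not pass (log2 0.88 ± 0.44, unadjusted p = 0.0536, adjusted p = 1). H2-DMa had 163, 174, 202 and 205 in double mutants and 122.3, 157 and 176 in doubly floxed controls, which overlapped (log2 0.23 ± 0.17). The responses of these genotypes differed in no called member at 6 h or 48 h, with 0.00847% and 0% of all genes called.

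Here too the untreated level followed the experiment. H2-Aa averaged 31.4 normalised reads in untreated double mutants and 21.6 in untreated doubly floxed controls of AS_DKO_LPS_2ndexp, and 162 and 140 in those of DKO_post_LPS. No library of one experiment overlapped the other within either genotype. In doubly floxed controls at 48 h H2-Aa fell by 3.48 on the log2 scale within DKO_post_LPS (adjusted p = 0.00145) and changed by -0.74 within AS_DKO_LPS_2ndexp (adjusted p = 0.234), while Cd74 changed by 0.08 (adjusted p = 0.904) and 1.46 (adjusted p = 0.00375). At 48 h the 2 experiments gave means of 11.4 and 11.1 normalised reads of H2-Aa.

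Over both experiments 4 of 6 members were called in doubly floxed controls at 6 h (1 upward, 3 downward; 42.7% of all genes) and 4 of 6 at 48 h (1 upward, 3 downward; 23.6%). In double mutants 4 of 6 were called at 6 h (1 upward, 3 downward; 44.3%) and 2 of 6 at 48 h, H2-Aa and H2-Eb1, both downward (18.1%). H2-DMb1 fell at 6 h in both, by 1.18 ± 0.16 in double mutants (adjusted p = 1.74e-07) and 1.41 ± 0.16 in doubly floxed controls (adjusted p = 3.23e-09). Its 6 h libraries had 43.2, 77.6 and 89.5 normalised reads (lowest, median, highest) in double mutants, and 63.3, 60.7, 48.4, 66.1 and 60.5 in doubly floxed controls, all below every untreated library of the same genotype. At 48 h the call for H2-Aa in double mutants (log2 -1.48 ± 0.46, adjusted p = 0.0192) was lost without 48 h library 3 or 4 or untreated library 4 (log2 -1.18 to -1.33, adjusted p = 0.0515 to 0.111), without the experiment term (adjusted p = 0.0868) and with only the groups compared (adjusted p = 0.0608). Without untreated library 4 the call of H2-Aa at 6 h was lost too (log2 -1.06, adjusted p = 0.0501).

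The double mutant table also held the 5 Il10ra mutant libraries of 48 h, which tie the genotypes together. H2-DMa had 121, 52.2, 63.8, 63.9 and 64.2 normalised reads in Il10ra mutants, 163, 174, 202 and 205 in double mutants, and 122.3, 157 and 176 (lowest, median, highest) in doubly floxed controls. H2-DMb1 had 153, 60.0, 78.1, 63.9 and 64.2 in Il10ra mutants, 195, 199, 180 and 202 in double mutants, and 156.3, 171 and 185 in doubly floxed controls. In both genes the Il10ra mutants lay below every library of the other genotypes.

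Double mutants were 1.37 ± 0.23 higher than Il10ra mutants in H2-DMa (log2, adjusted p = 1.72e-05) and 1.54 ± 0.24 higher in H2-DMb1 (adjusted p = 3.99e-06). Cd74 was lower in double mutants, with 196, 120, 202 and 200 normalised reads, against 321, 260, 372, 264 and 328 in Il10ra mutants (log2 -1.19 ± 0.39, adjusted p = 0.0205), a call lost without Il10ra mutant library 4 or 5 (adjusted p = 0.0582 and 0.181). Thus 3 of 6 members were called, 2 upward and 1 downward, against 28.6% of all genes. Against doubly floxed controls the Il10ra mutants were called in all 6, with H2-Aa (2.12), H2-Ab1 (1.36), H2-Eb1 (1.88) and Cd74 (1.44) higher and H2-DMa (-1.14) and H2-DMb1 (-1.37) lower (log2), against 33.9% of all genes.

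In this table Il10ra mutant libraries 1 to 3 were the sole group of experiment AS_3rd_LPS and did not enter the fold changes, which rest on libraries 4 and 5. Within AS_DKO_LPS_2ndexp all 6 members passed in Il10ra mutants against doubly floxed controls too (log2 1.12 to 1.965 upward, -1.25 and -1.36 downward), and leaving out single libraries gave 3 to 6 calls. The calls of H2-Aa, H2-Ab1 and H2-Eb1 were lost without Il10ra mutant library 4, those of Cd74 and H2-Eb1 without library 5, and that of H2-Eb1 also without doubly floxed library 4. Microglial markers summed to 4805 to 8979 normalised reads in Il10ra mutants, 12927 to 15723 in double mutants and 12131 to 17016 in doubly floxed controls. Monocyte markers summed to 26.9 to 176, 202 to 425 and 114.2 to 409.5 in these genotypes, B cell markers to 210 to 322, 404 to 693 and 359 to 689, and dendritic cell markers to 37.6 to 53.1, 67.3 to 109.9 and 83.2 to 109.1. Neither the source of the B cell transcripts nor the part of these markers in the differences was tested.

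**Figure D5:**
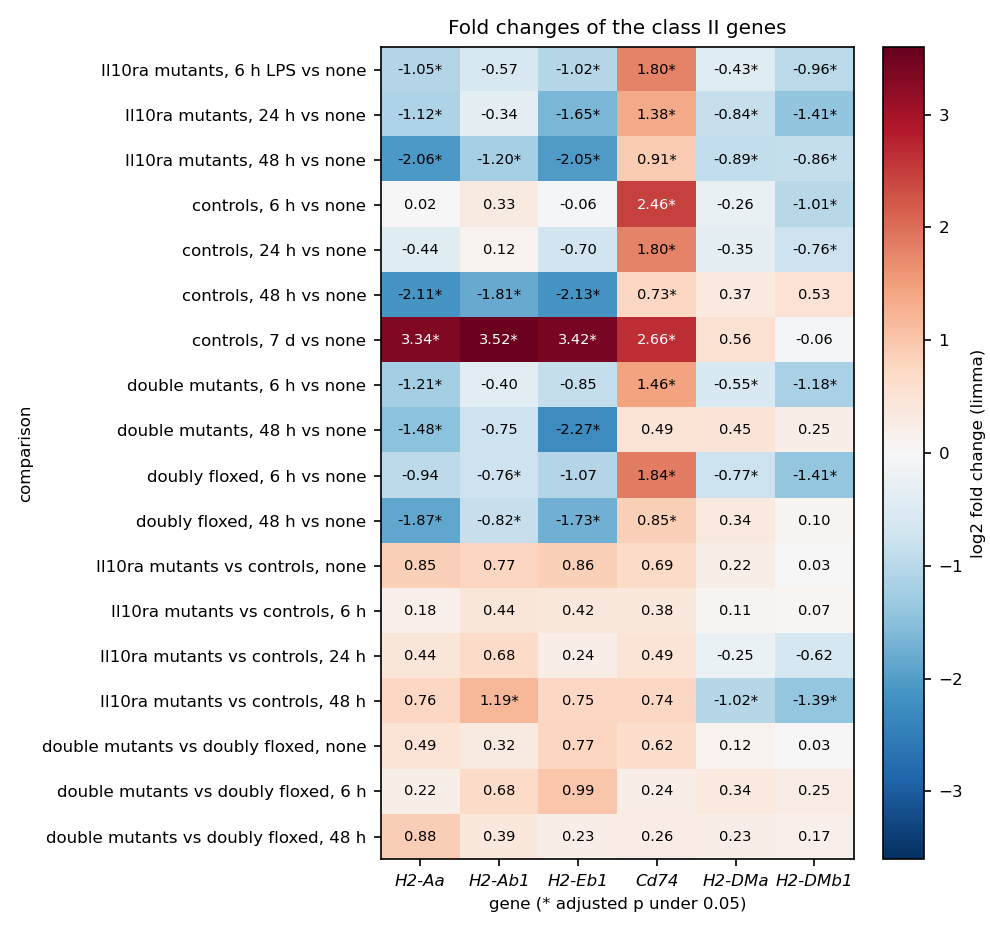
Log2 fold change (limma) of each gene, by column, in the responses to LPS and in the comparisons of genotypes, by row, with mutants above their controls. Red is higher and blue lower in the group named first, and an asterisk marks an adjusted p under 0.05. Cd74 is positive in every response to LPS, H2-Aa, H2-Ab1 and H2-Eb1 are negative in every response at 48 h and positive at 7 days, and H2-DMa and H2-DMb1 are called between Il10ra mutants and controls at 48 h.

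WT C57BL/6 microglia stood apart in H2-DMa. Untreated C57BL/6 libraries had 391, 517, 523 and 468 normalised reads of H2-DMa, against 91.3, 120 and 151 (lowest, median, highest) in untreated IL10Rafl/fl controls. The groups did not overlap, and the level was 3.87-fold higher in C57BL/6 (log2 1.95 ± 0.14, adjusted p = 2.73e-10). It was the sole member called of 6, against 9.74% of all genes. H2-DMb1 had 152, 197, 226 and 167 in C57BL/6 and 131, 153 and 175 in controls (log2 0.27 ± 0.14, adjusted p = 0.251).

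H2-Aa had 117, 202, 32.8 and 51.8 normalised reads in C57BL/6 and 52.5, 86.5 and 125 in controls, and did not pass (log2 -0.07 ± 0.44, adjusted p = 0.951). The other class II genes H2-Oa (log2 0.56, adjusted p = 0.00114), H2-Ob (0.57, adjusted p = 0.0366) and H2-DMb2 (1.56, adjusted p = 0.0287) were higher in C57BL/6, as were 6 of 11 genes of the class I pathway, among them H2-D1 (1.42), H2-K1 (1.41) and Psmb9 (0.71). Of all genes 5.8% were called higher in C57BL/6. The C57BL/6 libraries were an experiment of their own, so that strain background and experiment cannot be told apart. H2-Ab1 did not pass (log2 0.76 ± 0.32, adjusted p = 0.135), but did in limma with only the groups compared (adjusted p = 0.0171). It also did with the replicate block (adjusted p = 0.0161), but replicate numbers of different experiments name no pairs. Microglial markers summed to 18833 to 20676 normalised reads in C57BL/6 and 20979 to 21728 in controls, monocyte markers to 3.45 to 9.37 and 16.9 to 34.1, and B cell markers to 855 to 989 and 546 to 740, none overlapping. Erythroid markers summed to 202 to 886 in C57BL/6 and 0 to 217 in controls, which overlapped. Neither the source of the B cell transcripts nor the part of these markers in the H2-DMa result was tested.

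Across the 48 libraries of the Il10ra mutant table the members fell into sets that shared a pattern. The points share libraries, groups and experiments, so the correlations are descriptions. H2-Aa ran with H2-Eb1 (Pearson r of log2 values 0.946) and H2-Ab1 (0.845), and H2-DMa with H2-DMb1 (0.761). Cd74 was near 0 with H2-Aa (0.0677) and negative with H2-DMb1 (-0.603). Genes named Gm with a number or ending in Rik, and the members themselves, were left out before genes were ranked by the same measure. Of the rest the 5 genes most like Cd74 were Cited2 (0.896), Ass1 (0.892), Id2 (0.881), Osm (0.880) and Ier3 (0.876). The 5 most like H2-Aa outside the class II genes were Upk1b (0.733), Ephx1 (0.727), Sox4 (0.725), Nr3c1 (0.694) and Serpine2 (0.683).

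In controls the order of Cd74, highest first, was 7 days, 6 h, 24 h, 48 h and untreated, with means of 623 ± 180, 481.2 ± 75.3, 326 ± 129, 195 ± 18.9 and 103 ± 19.4 normalised reads (SD). Neighbours overlapped except 48 h and untreated. The order of H2-Aa was 7 days, untreated, 6 h, 24 h and 48 h, at 943 ± 269, 103 ± 34.3, 80.6 ± 32.2, 58.5 ± 23.6 and 31.7 ± 14.4, where the 7 day libraries stood clear of the rest and each later pair of neighbours overlapped. H2-DMb1 was highest at 48 h (245 ± 17.4), with every library above those of the other times, and lowest at 6 h (94.4 ± 15.5), where it overlapped the 24 h libraries alone.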

How the data were processed

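The deposited signal values, 1 per gene and library in 4 tables, had been scaled between libraries by the authors, per the file headers, which call each column normalized. They are called normalised reads here. Libraries were MARS-seq per the labels, and mm10 is the build in the submitters' processing notes. How reads were aligned, counted and scaled was not stated in the labels used. Whole reads were recovered for 100% of values (tolerance 0.01), 540642 to 2489084 per library, and were used for edgeR 4.0.16 and DESeq2 1.42.0 as alternatives. The filters left 11103, 11555, 11800 and 10367 genes.

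Groups and experiments came from the labels. Log2 of value plus 1 was fitted with limma 3.58.1 (trend; R 4.3.3), with all groups of a table and experiment as an additive term. A gene was tested if it reached 5 normalised reads in at least n libraries, n being the size of the smallest group and never under 2. The 7 day experiment was coded 0, and the terms of the other experiments summed to 0. The 7 day libraries were thus set against untreated controls moved to the mean of the other control experiments. Among these Anat_LPSchallenged held no untreated controls. No experiment term entered the C57BL/6 comparison. Log2 Cd74 minus log2 H2-Aa was tested by exact permutation over libraries. The steps were tested on simulated data with known changes.

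The members, lists and tests were chosen with earlier results of these data known. In every comparison all members are named, with up to 3 called genes of lowest adjusted p from each other list, the 5 genes most like Cd74 and H2-Aa, and Il10ra and Tnf as the targeted genes. Some genes that this rule names are not reported here. Alternatives were the pseudocount (0.5 or 4), the filter, the experiment term, single experiments, the groups in the fit, quantile normalization, a replicate block, edgeR, DESeq2 and leaving out each library. Blank rows (1, 1, 0 and 0) and rows whose names had become dates (17, 18, 18 and 17) were left out, as were 1 library with conflicting genotype labels and the 20 ATAC libraries.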

Additional observations from a re-analysis of the deposited data

Results flagged for a closer look

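Of 96 groups of library values 13 held a library whose distance from its nearest neighbour was large against the range of its group. Chance gives about 1 in 20 for independent groups. These groups hold the same libraries once per gene, so the count cannot be set against that share. Mutant 48 h library 1 was high in H2-Aa (70.3 normalised reads), H2-DMa (116.1) and H2-DMb1 (147). Mutant 24 h library 2 was high in H2-Aa (133) and H2-Eb1 (51.4), and mutant 24 h library 1 in H2-DMb1 (112.2). Untreated mutant library 7 was high in H2-Ab1 (527), control 48 h library 1 in Cd74 (230) and C57BL/6 library 2 in H2-Eb1 (99.4). Among doubly floxed controls untreated library 5 was high in H2-DMa (166), 6 h library 4 in H2-Eb1 (48.1) and 48 h library 7 in H2-Ab1 (69.1). Double mutant 48 h library 2 was low in Cd74 (120).

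The 48 h response to LPS differed between Il10ra mutants and controls in H2-DMa (-1.24, log2) and H2-DMb1 (-1.42), as tested by the interaction term.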

How the results depend on the processing

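Of the fold changes of members recomputed under other settings 1546 kept their call, 31 gained one, 40 lost one and 1 reversed: H2-Aa in mutants at 24 h within AS_2nd_exp (0.074, adjusted p = 0.899). Counts of members called changed by more than 1.5 times as follows. With replicate numbers as a block they were 3 in mutants at 6 h, 3 in mutants at 48 h, 2 in doubly floxed controls at 48 h and 2 in C57BL/6. Without the experiment term they were 2 in doubly floxed controls and 1 in double mutants at 48 h. With only the groups compared they were 1 in double mutants at 48 h and 2 in C57BL/6. Within AS_2nd_exp they were 1 in controls at 24 h, 2 in mutants at 6 h and 3 at 24 h, and within AS_DKO_LPS_2ndexp 2 in doubly floxed controls at 48 h and 2 and 0 in double mutants at 6 h and 48 h. The cause was not tested, except that fits within 1 experiment hold fewer libraries. Leaving out single libraries gave counts of 1 to 3 (controls, 24 h), 0 to 1 (mutants against controls, 24 h), 3 to 6 (mutants, 48 h), 1 to 3 (double mutants, 48 h), 3 to 6 (Il10ra mutants against doubly floxed controls) and 2 to 6 (double mutants against Il10ra mutants). Cd74 minus H2-Aa no longer passed within the experiment holding most libraries of a comparison, at 2.51, 2.17 and 2.85 in controls (6 h, 24 h, 48 h), 3.15, 2.72 and 2.93 in mutants, 2.83 and 2.21 in doubly floxed controls (6 h, 48 h), 2.52 and 2.60 in double mutants, and -0.78 for double mutants against doubly floxed controls at 48 h. Leaving out libraries gave 1.90 to 2.21 (double mutants, 48 h), -0.84 to -0.59 (double mutants against doubly floxed controls, 48 h) and -0.82 to -0.48 (Il10ra mutants against doubly floxed controls, 48 h). Same-numbered libraries correlated at -0.327 to 0.408 and in no comparison all over 0.1, so the replicate numbers pair nothing. H2-Eb1, at 1.04 normalised reads in its lowest library, is limited by depth.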

Other observations

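A library of the doubly floxed genotype at 48 h carried labels that name different genotypes and entered no comparison. It had 25.1 normalised reads of H2-Aa, 55.8 of H2-Ab1, 11.0 of H2-Eb1, 224 of Cd74, 175 of H2-DMa and 204 of H2-DMb1, with 467 of Il10ra and 266 of Tnf.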
